A study of Arabidopsis thaliana with 5 samples.

Results

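The xyloglucan endotransglucosylase/hydrolase (XTH) family of Arabidopsis thaliana was followed in developing seeds. The 33 genes XTH1 to XTH33 were taken by gene identifier from the 37336 genes of the count table. RNA-seq libraries came from wild-type Col-0 seeds (2 libraries) and from seeds of the mutant dof4.1-3 in the Col-0 background (3 libraries), all 9 days after pollination by the labels and methods. The results text of the paper gives a different age. The labels write the mutant as dof4-1, and the allele name dof4.1-3 comes from the methods. The mutant is a single T-DNA line of DOF4.1, the gene of a Dof-type transcription factor, so its differences from Col-0 rest on 1 insertion event. Neither the labels nor the methods tell whether the replicates were grown as separate plants, so p-values measure only how far these libraries spread, and that spread may be technical. The seeds were used whole.

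Xyloglucan is the main hemicellulose of primary walls in dicots and lies on and between cellulose microfibrils. XTH enzymes cut its glucan backbone and rejoin the cut end to another xyloglucan chain (endotransglucosylase activity) or, in a few members, to water (hydrolase activity). They act in walls that expand, and in some species with xyloglucan-storing seeds, such as nasturtium, a hydrolase of the family mobilizes the reserve. The family tree has groups I and II, which are mostly transglucosylases, group III-A (XTH31 and XTH32), which holds hydrolases, and group III-B (XTH27 to XTH30 and XTH33).

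The catalytic motif of the family is shown because the member with the clearest genotype difference, XTH11, deviates in it. In the motif a first glutamate serves as the nucleophile and a second glutamate, after an aspartate, as the acid/base. The bases below were read from the TAIR10.1 genome in the sense of the coding strand, and capitals mark the codons of the first and second position. The first codon encodes Glu in 33 of 33 members. The second encodes Glu in 32 members and Gln in XTH11, and the position between them encodes Asp in 32 and Cys in XTH11. In XTH11 these codons are numbers 107 and 111 of 277.
XTH11: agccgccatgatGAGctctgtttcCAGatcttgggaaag
XTH9: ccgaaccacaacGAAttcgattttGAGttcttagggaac
XTH8: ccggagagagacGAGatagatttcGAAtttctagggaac
XTH24: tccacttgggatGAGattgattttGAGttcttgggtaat
XTH22: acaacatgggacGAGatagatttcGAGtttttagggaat
XTH27: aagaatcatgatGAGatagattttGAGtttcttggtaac

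The libraries held 16500028 and 17049283 gene counts in Col-0 against 20101091, 21722055 and 21053818 in dof4.1-3. DOF4.1 itself had 1 and 14 counts in the wild type and 3, 4 and 4 in the mutant, too few to check the genotype labels. The summed markers of seed coat, embryo maturation and endosperm lay apart between genotypes, and those of the silique wall overlapped. The paper already reports MUM4, PMEI6, CRA, CRC, ABI3 and LEC1 as changed in these libraries. The seed coat and embryo sums are therefore no separate measure of tissue amount. The 7 seed coat markers summed to 1599 and 1896 CPM (counts scaled to a common library size and TMM-normalized) in Col-0 and to 1035 to 1153 in dof4.1-3. The 6 embryo maturation markers summed to 26359 and 46208 against 59703 to 131409, and most of this sum was CRA, CRC and OLEO1. The 6 endosperm markers summed to 137 and 146 against 50.5 to 90.7, nearly all of it ALE1 and ZOU. Both lay below Col-0 in every mutant library. AGL62 and MEA overlapped between genotypes, MEA with a log2 fold change of 1.09 (adjusted p = 0.445 by edgeR), and FIS2 and PHE1 were not tested. The 5 silique wall markers summed to 160 and 190 against 165 to 225. Most of the silique wall sum was FIL (117 and 145 CPM in Col-0, 130 to 197 in dof4.1-3), while the other 4 markers had negative log2 fold changes (list median -0.41). Of these, 3 lay below Col-0 in every mutant library, beside 18.3% of all tested genes. They were FUL at -0.91 (adjusted p = 0.140 by edgeR), RPL at -0.28 and ALC, which had 6 to 13 counts per library. LEC1, an early embryo regulator, was the exception in the embryo list and fell in dof4.1-3 (adjusted p = 0.0209 by edgeR). Every marker of the 4 lists had counts in at least 1 library. In whole seeds, fewer cells of a type and less RNA per cell cannot be told apart.

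Most of the family was silent or weak at this stage and XTH24 dominated it. Of 33 members, 6 (XTH2, XTH13, XTH14, XTH17, XTH21 and XTH26) had 0 counts in all 5 libraries, and a count of 0 allows up to 0.137 to 0.185 CPM per library (3 counts, counting error only). A further 6 (XTH1, XTH10, XTH12, XTH20, XTH31 and XTH33) had 0 to 6 counts in each library and fell under the filter on low counts. The remaining 21 members were tested. Among the silent genes, XTH21 and XTH26 are known from roots and XTH17 from roots and shaded petioles.

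XTH24 (AT4G30270), also called MERI5 and first found in a meristem library, had a mean of 330 CPM per kb of transcript over the 5 libraries, which placed it at rank 267 of 37051 genes with a length. Its lowest library (202 CPM per kb) lay above the highest library of any other member (35.5 CPM per kb, XTH11 in Col-0 replicate 1). XTH24 took 58.5% and 56.3% of all XTH counts in Col-0 against 54.7%, 68.3% and 56.0% in dof4.1-3.

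**Figure D1:**
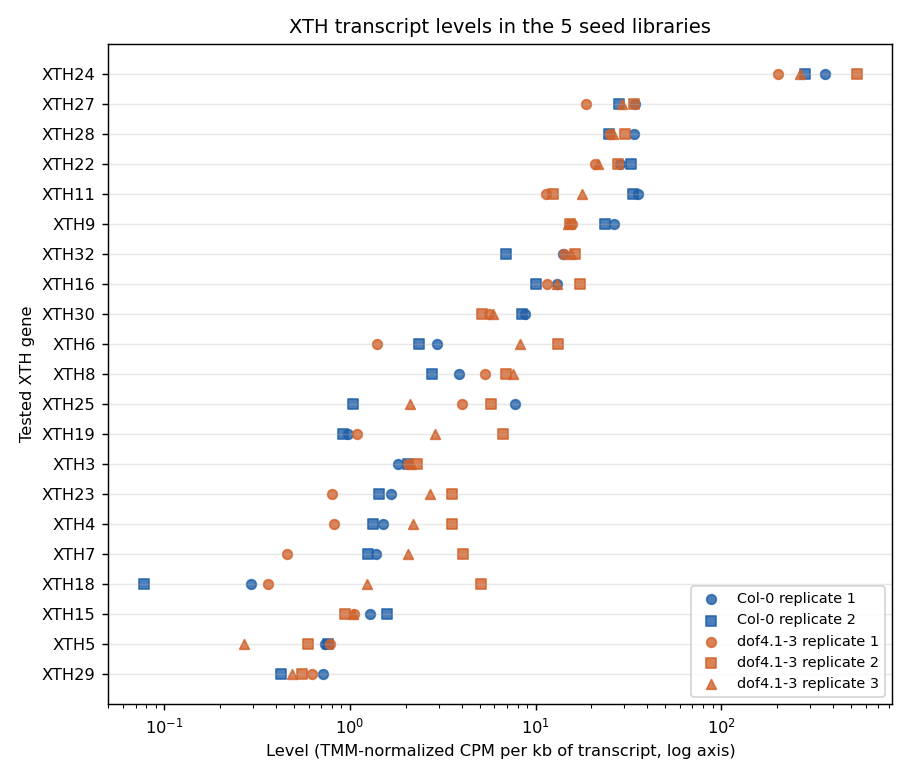
Level of each of the 21 tested XTH genes in every library, in TMM-normalized CPM per kb of transcript on a log axis. Blue symbols are the 2 Col-0 libraries and orange symbols the 3 dof4.1-3 libraries, and XTH24 stands to the right of all other members.

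Next in mean level per kb came XTH27 (AT2G01850, 28.9 CPM per kb), a group III-B gene known from leaf veins (chromosome 2, 385171 to 387478, plus strand), XTH28 (AT1G14720, 28.1), known from stamen filaments, XTH22 (AT5G57560, 26.4), the touch-induced gene TCH4, XTH11 (22.1) and XTH9 (19.3), known from the shoot apex. The ranges of XTH27, XTH28 and XTH22 over the libraries overlapped, so these neighbours in the order were not separated. XTH32 (13.4 CPM per kb) and XTH16 (13.0) followed, and the last of the tested members was XTH29 (0.560). XTH24 and the 5 genes XTH27, XTH28, XTH22, XTH11 and XTH9 together made up 84.4% to 90.8% of the summed CPM of the family in each library. This order holds for the mean over all 5 libraries. In the Col-0 mean XTH11 (34.4 CPM per kb) came before XTH27 (31.3), XTH22 (30.7) and XTH28 (29.5).

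Genes that lie side by side on a chromosome differed widely in level. On chromosome 4 of TAIR10.1, XTH24 (14819192 to 14820595, minus strand) lies 5162 bp from XTH18 (14825757 to 14827211) and XTH18 lies 1501 bp from XTH19 (14828712 to 14830224). XTH18 and XTH19 had mean levels of 1.41 and 2.50 CPM per kb beside the 330 of XTH24. On chromosome 5, XTH12, XTH13, XTH25 and XTH22 follow each other with gaps of 1098, 687 and 566 bp. XTH22 (23307006 to 23308680, minus strand) was among the strongest members, XTH25 had 4.13 CPM per kb, XTH12 had 1 to 6 counts per library and XTH13 had none. XTH14, at 0 counts, lies 364 bp from XTH23 (2.03 CPM per kb).

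The summed XTH level did not separate the genotypes. It was 748 and 604 CPM in Col-0 against 447, 953 and 572 in dof4.1-3. The dof4.1-3 libraries held both the lowest and the highest sum. Without XTH24 the sums were 311 and 264 in Col-0 against 203, 302 and 252 in dof4.1-3, which again overlapped.

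**Figure D2:**
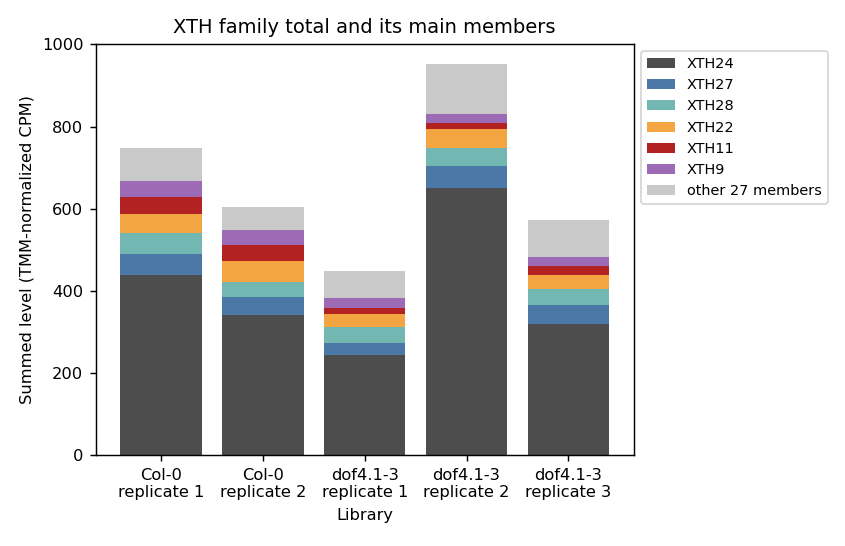
Summed TMM-normalized CPM of the XTH family in each library, stacked by member, with the 27 weaker members in grey. XTH24 is the largest block in every library, and dof4.1-3 replicates 1 and 2 have the lowest and highest totals (447 and 953 CPM).

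Between genotypes 1 member passed the test, and the estimates of the others ran in both directions. At an adjusted p under 0.05 (edgeR quasi-likelihood test, Benjamini-Hochberg over all 19003 tested genes), 1 of 21 tested members, XTH11, was lower in dof4.1-3 and 0 were higher. Over all tested genes 0.963% were called lower and 0.121% higher. At an unadjusted p under 0.05 there were 3 lower (XTH11, XTH9 and XTH30) and 3 higher members (XTH8, XTH18 and XTH19), where 15.8% of all tested genes reached this in either direction. DESeq2 called 2 lower (XTH11 and XTH9) and 1 higher (XTH18). Over all genes it called 625 lower and 258 higher, more than edgeR in both directions. XTH18, at 6 and 2 counts in Col-0, passed the filter on low counts only through its mutant libraries. The filter thus allowed XTH18 to appear only as a higher member. All dof4.1-3 libraries lay below both Col-0 libraries in 5 of 21 members (background 18.3%) and above both in 4 (background 16.3%). The median log2 fold change of the 21 members was 0.06 (range -1.31 to 3.60), beside 0.03 over all tested genes.

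**Figure D3:**
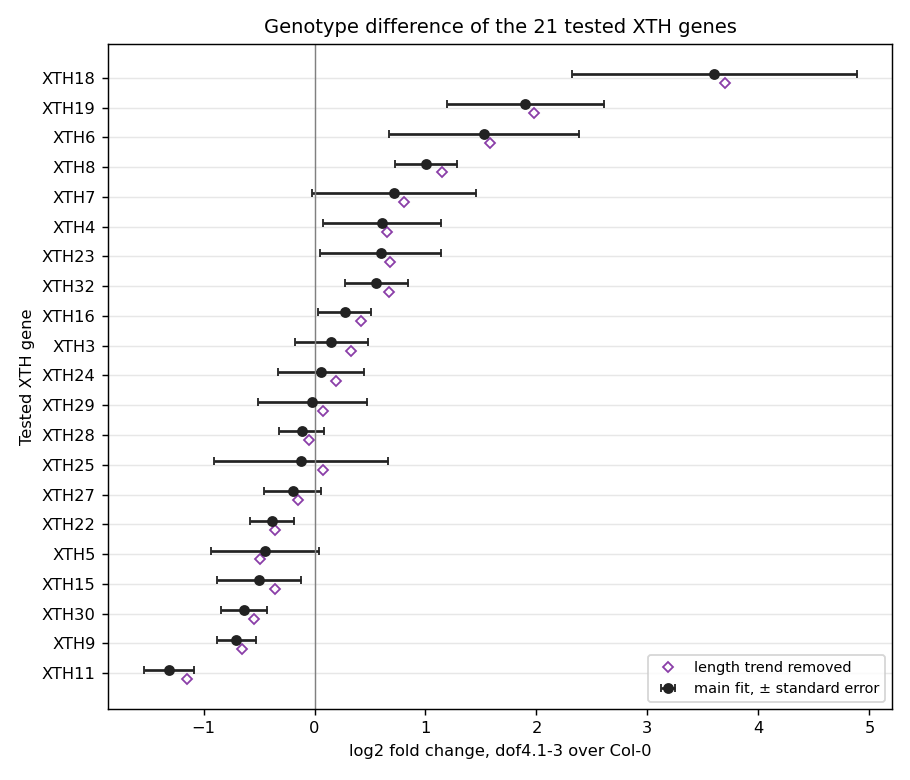
Log2 fold change, dof4.1-3 over Col-0, of the 21 tested XTH genes. Filled circles with bars are the estimates ± standard error from edgeR, open diamonds the estimates with a trend over transcript length removed, and XTH11 lies at the low end at -1.31 and XTH18 at the high end at 3.60.

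XTH11 (AT3G48580, chromosome 3, 18007098 to 18008535, plus strand, 4 exons) fell in dof4.1-3. It had 41.4 and 39.0 CPM in Col-0 against 13.3, 14.5 and 20.7 in dof4.1-3. The Col-0 mean was 40.2 ± 1.76 CPM (SD, n = 2), the dof4.1-3 mean was 16.2 ± 3.99 CPM (SD, n = 3), and the groups did not overlap. The log2 fold change was -1.31 (standard error 0.22, adjusted p = 0.0290 by edgeR), a level 2.49-fold lower. This is the member whose second catalytic codon encodes Gln in the sequences above. Across all tested genes, the shortest 10% of transcripts had a median log2 fold change of -0.31 and the longest 10% of 0.29. With this trend over transcript length removed the XTH11 value was -1.15 (adjusted p = 0.0637), and without Col-0 replicate 1 or 2, which leaves 1 Col-0 library assumed to vary like the others, the adjusted p was 0.365 or 0.278. In the same libraries all 6 tested seed coat markers were lower in dof4.1-3 with unadjusted p under 0.05 by edgeR. Over all 19003 tested genes 1809 were lower at this threshold. At an adjusted p under 0.05 only 1 of the 6, BAN, was called. The part of seed tissue composition in the XTH11 difference was not tested.

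Of the other members below Col-0 in every mutant library, XTH9 (AT4G03210, group I, chromosome 4, 1415617 to 1417444) had the smallest p. It had 40.2 and 36.2 CPM in Col-0 against 24.0, 23.4 and 22.9 in dof4.1-3. The 3 mutant libraries lay close together and apart from Col-0. The log2 fold change was -0.71 (standard error 0.18), and the adjusted p was 0.0937 by edgeR and 0.0220 by DESeq2.

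XTH30 (AT1G32170, group III-B) had 12.2 and 11.9 CPM in Col-0 against 7.84, 7.21 and 8.26 in dof4.1-3. Again the groups were apart, but the log2 fold change of -0.63 (standard error 0.21) did not pass (adjusted p = 0.172 by edgeR). XTH22 had 45.5 and 52.1 CPM in Col-0 against 33.3, 44.1 and 34.7 in dof4.1-3, with the highest mutant library close to the lower Col-0 library (log2 fold change -0.39, standard error 0.20, adjusted p = 0.383 by edgeR). The fifth such member was XTH15, a gene known from shaded petioles, with 1.54 and 1.91 CPM in Col-0 and 1.14 to 1.28 in dof4.1-3. XTH15 overlaps a gene on the opposite strand (AT4G14120), and counting without strand cannot tell their reads apart.

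Of the members above Col-0 in every mutant library, XTH8 (AT1G11545, group I, chromosome 1, 3878495 to 3880391) had the smallest p. It had 4.69 and 3.38 CPM in Col-0 against 6.47, 8.46 and 9.25 in dof4.1-3. The groups did not overlap, and the log2 fold change of 1.00 (standard error 0.28) had an adjusted p of 0.125 by edgeR.

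XTH32 (AT2G36870), a group III-A gene whose group is known for hydrolysis, had 19.1 and 9.46 CPM in Col-0 against 19.5, 22.2 and 21.1 in dof4.1-3. Col-0 replicate 1 was level with the mutant and Col-0 replicate 2 stood below (log2 fold change 0.56, standard error 0.28, adjusted p = 0.372 by edgeR). Without Col-0 replicate 2 the log2 fold change was 0.13 and without Col-0 replicate 1 it was 1.15.

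XTH18 (AT4G30280) and XTH19 (AT4G30290), a neighbouring pair known from roots, were high in dof4.1-3 replicates 2 and 3, with dof4.1-3 replicate 1 just above Col-0. The counts of XTH18 were 6 and 2 in Col-0 against 10, 118 and 30 in dof4.1-3, or 0.370 and 0.098 CPM against 0.456, 6.40 and 1.56. Its log2 fold change of 3.60 (standard error 1.28) had an adjusted p of 0.245 by edgeR, 0.0119 by DESeq2 and 0.0403 by edgeR without dof4.1-3 replicate 1. Without dof4.1-3 replicate 2 or 3 XTH18 fell under the filter on low counts and was not tested. XTH19 had 1.30 and 1.23 CPM in Col-0 against 1.46, 8.90 and 3.84 in dof4.1-3. Its log2 fold change, 1.90 (standard error 0.71, adjusted p = 0.253 by edgeR), became 1.07 without dof4.1-3 replicate 2, and without dof4.1-3 replicate 1 it was 2.33 (adjusted p = 0.0165).

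The coding sequences of this pair are 88.8% identical. A 50-nt window of XTH18, the length of 1 read, occurs in XTH19 for 19 of 1214 windows (1.57%). The longest stretch that both transcripts share lies in their coding sequence and is printed because a read that falls inside it matches both genes.
XTH18 and XTH19: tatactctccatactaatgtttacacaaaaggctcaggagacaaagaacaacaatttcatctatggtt
The count table listed 0 reads as not uniquely aligned, so how such reads were treated cannot be read from it. The part of shared reads in the counts of the pair was not tested.

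Among the most abundant members, XTH24, XTH27 and XTH28 had no difference beyond the spread between libraries. XTH24 had 438 and 340 CPM in Col-0 against 245, 651 and 320 in dof4.1-3 (log2 fold change 0.06, standard error 0.39, adjusted p = 0.956 by edgeR). The mutant libraries lay on either side of Col-0, and without dof4.1-3 replicate 2 the log2 fold change was -0.45. XTH27 had 52.9 and 43.8 CPM in Col-0 against 28.9, 52.6 and 45.1 in dof4.1-3 (-0.19, standard error 0.26, adjusted p = 0.745 by edgeR). XTH28 had 50.6 and 37.3 CPM in Col-0 against 37.6, 45.0 and 39.2 in dof4.1-3 (-0.12, standard error 0.20, adjusted p = 0.818 by edgeR). The mutant values of both genes overlapped Col-0.

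XTH25 (AT5G57550), the neighbour of XTH22, had the largest ratio between the Col-0 libraries of all tested members. It had 9.13 and 1.23 CPM in Col-0 against 4.78, 6.84 and 2.49 in dof4.1-3, and all mutant values lay between the Col-0 libraries. Its log2 fold change, -0.12 (standard error 0.78, adjusted p = 0.956 by edgeR), became 1.94 without Col-0 replicate 1 and -0.96 without Col-0 replicate 2.

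The members XTH4 (AT2G06850), XTH6 (AT5G65730), XTH7 (AT4G37800) and XTH23 (AT4G25810), chosen here after their values were seen, shared an order of the mutant libraries with XTH24. All 5 genes were lowest in dof4.1-3 replicate 1 and highest in dof4.1-3 replicate 2, on either side of Col-0. The order of the mutant libraries was not particular to them. XTH3, XTH16, XTH18, XTH19, XTH22, XTH27, XTH28 and XTH32 had it too, without lying on either side of Col-0. How often this order occurs over all genes was not counted. XTH6 had 4.32 and 3.48 CPM in Col-0 against 2.05, 19.5 and 12.2 in dof4.1-3. XTH4 had 2.34 and 2.06 CPM in Col-0 against 1.28, 5.48 and 3.38 in dof4.1-3. XTH7 and XTH23 had 1.62 to 2.28 CPM in Col-0, 0.592 and 1.09 in dof4.1-3 replicate 1 and 5.21 and 4.88 in dof4.1-3 replicate 2. The summed embryo maturation markers had the same order among the mutant libraries for replicates 1 and 2 (59703 and 131409 CPM), with 114637 in replicate 3. This sum was mostly CRA, CRC and OLEO1. From replicate 1 to 2 these and FUS3 rose, while ABI3 (150 to 115 CPM) and LEC1 (19.0 to 15.6 CPM) fell. The part of the embryo markers in these XTH levels was not tested. The XTH6 log2 fold change was 1.52 (standard error 0.86, adjusted p = 0.448 by edgeR). Without dof4.1-3 replicate 1, the mutant library below Col-0, it was 2.02 (adjusted p = 0.005 by edgeR). Without dof4.1-3 replicate 2 it was 0.87 (adjusted p = 0.611 by edgeR), and without dof4.1-3 replicate 3 it was 1.46 (adjusted p = 0.574 by edgeR).

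**Figure D4:**
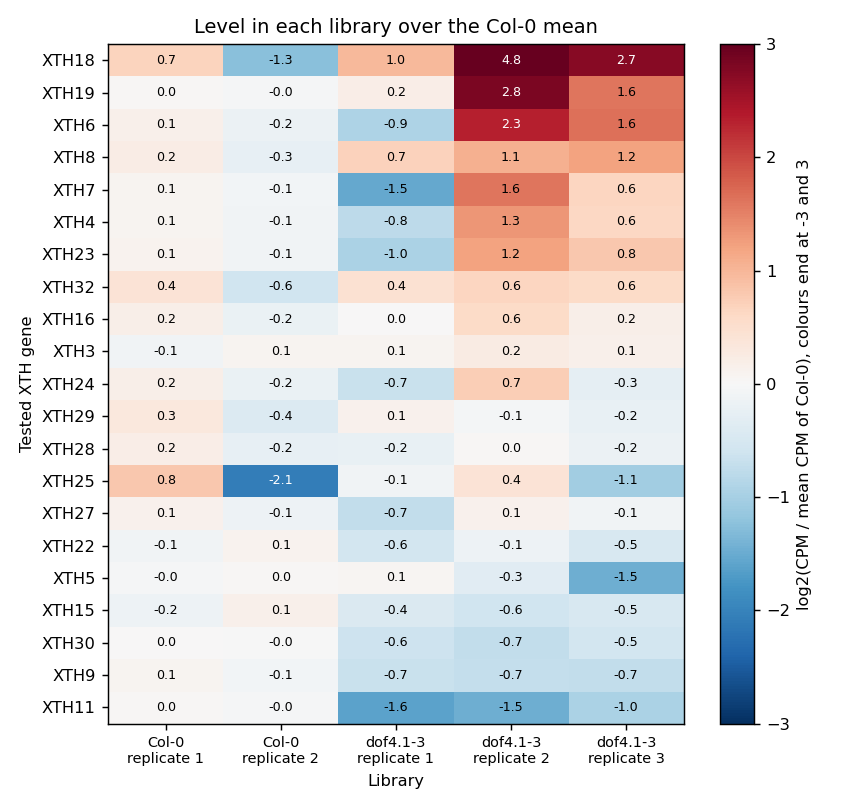
Level of each tested XTH gene in each library as log2 of its TMM-normalized CPM over the mean CPM of the 2 Col-0 libraries, ordered by fold change, with colours ending at -3 and 3. XTH11, XTH9 and XTH30 are blue in all 3 dof4.1-3 libraries, while XTH6, XTH7, XTH4 and XTH23 are blue in dof4.1-3 replicate 1 and red in replicates 2 and 3.

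The remaining tested members overlapped between genotypes. XTH16 had 12.3 and 15.8 CPM in Col-0 and 14.1 to 20.99 in dof4.1-3, XTH3 had 1.97 and 2.25 against 2.23 to 2.50, and XTH5 and XTH29 stayed under 2 CPM in every library. By family group, 8 of 11 group I members were tested, 5 with a positive and 3 with a negative log2 fold change (median 0.38). In group II 8 of 15 were tested, again 5 positive and 3 negative (median 0.17). In group III-B 4 of 5 were tested and all 4 were negative (median -0.15), with none called. XTH29 was at -0.02 (standard error 0.49), and the signs of XTH27, XTH28 and XTH29 turned when 1 library was left out. Over all 19003 tested genes 9011 were negative.

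Dof factors bind DNA at an AAAG core, so the bases before the XTH genes were searched for it on both strands. The core AAAG occurred within 250 bases upstream of the transcript start in 33 of 33 XTH genes and in 98% of 27443 genes with such a window, with a median of 5 cores per XTH gene and 4 per gene overall. The longer form TGTAAAG, the prolamin box, which contains the core, occurred in 4 XTH genes (12.1%; XTH1, XTH9, XTH17 and XTH33) and in 4.46% of all genes. The upstream windows of XTH11 and XTH9 are shown because these members had the smallest p. They held 9 and 7 cores, in capitals as AAAG or, for the other strand, CTTT. Such numbers were not particular to them. XTH6 also held 9 cores, XTH8, XTH26 and XTH30 held 8, and XTH10 and XTH28 held 7. XTH11 is at chr3:18006848-18007097 and XTH9 at chr4:1415367-1415616 of TAIR10.1, both on the plus strand. A match of letters is a description and not a binding site.
XTH11: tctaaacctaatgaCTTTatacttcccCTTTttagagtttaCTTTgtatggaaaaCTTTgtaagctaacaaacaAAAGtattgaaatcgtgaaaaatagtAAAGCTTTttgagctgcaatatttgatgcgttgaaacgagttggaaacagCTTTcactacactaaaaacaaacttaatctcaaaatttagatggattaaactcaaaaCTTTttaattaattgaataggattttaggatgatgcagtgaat
XTH9: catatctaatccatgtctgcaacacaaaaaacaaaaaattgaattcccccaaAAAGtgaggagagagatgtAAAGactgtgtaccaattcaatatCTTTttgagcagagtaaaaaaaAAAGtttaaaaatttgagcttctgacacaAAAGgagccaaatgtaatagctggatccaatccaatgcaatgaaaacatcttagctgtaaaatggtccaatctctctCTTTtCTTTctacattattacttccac

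The genes that make and trim the substrate of XTH enzymes were read from the same fit. Of 16 xyloglucan synthesis genes 15 were tested, with 1 called higher and 0 lower, beside 0.121% and 0.963% of all tested genes. At an unadjusted p under 0.05 there were 3 higher and 0 lower, beside 15.8% of all tested genes in either direction, and the median log2 fold change was 0.01. DESeq2 also called 0 lower. The called gene was CSLC5 (AT4G31590), a glucan synthase of the xyloglucan backbone, with 27.6 and 29.2 CPM in Col-0 against 56.9, 50.6 and 59.9 in dof4.1-3. The groups were far apart (log2 fold change 0.98, standard error 0.19, adjusted p = 0.0455 by edgeR). Its relative CSLC12 had 3.15 and 3.72 CPM in Col-0 against 6.15, 12.2 and 9.51 in dof4.1-3 (1.43, standard error 0.33, adjusted p = 0.0775 by edgeR and 0.0064 by DESeq2). CSLC6, of the same family, had 14.3 and 16.0 against 21.5, 19.2 and 22.1 CPM (0.47, adjusted p = 0.277 by edgeR).

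XXT2, a xylosyltransferase that adds the side chains and the most abundant of the synthesis genes, had 148 and 124 CPM in Col-0 against 151, 113 and 142 in dof4.1-3 (log2 fold change -0.01, standard error 0.21). It was named here after its values were seen.

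Of 5 genes that trim xyloglucan in the wall, all were tested, and 1 was called higher and 0 lower, against the same background of 0.121% and 0.963%. At an unadjusted p under 0.05 there were 1 higher and 0 lower, DESeq2 called 0 lower, and the median log2 fold change was 0.19. The called gene was AXY8 (AT4G34260), an alpha-fucosidase that removes fucose from xyloglucan side chains. It had 55.9 and 48.1 CPM in Col-0 against 104, 140 and 120 in dof4.1-3, so that every mutant library lay well above Col-0 (1.22, standard error 0.22, adjusted p = 0.0330 by edgeR). The beta-glucosidase genes BGLC3 and BGLC1 had log2 fold changes of 0.36 and 0.19 (adjusted p = 0.411 and 0.686 by edgeR). The calls of CSLC5 and AXY8 were lost with the length trend removed (log2 fold change 0.75 and 0.99) and without Col-0 replicate 1 (0.94 and 1.34), Col-0 replicate 2 (1.02 and 1.12) or dof4.1-3 replicate 3 (0.92 and 1.23). CSLC5 also missed the threshold with at least 10 counts in every library (adjusted p = 0.0509 by edgeR).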

How the data were processed

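Total RNA of whole seeds was sequenced as paired 50-nt reads. Per the labels and methods, the authors trimmed with cutadapt, checked reads with FastQC, mapped to TAIR10 with HISAT2 and used htseq-count without strand to count reads per gene; DESeq2 was their test. Their versions and the annotation release were not given in the sources used here. Deposited values are raw counts of 37336 genes in 5 libraries. Left out were 9 blank lines and 5 summary lines (no feature 0.727% to 1.74%, ambiguous 3.09% to 3.92%).

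Groups came from the genotype labels. Genes were kept with filterByExpr, scaled with TMM and tested with edgeR 4.0.16 (quasi-likelihood F test, robust, genotype as the only term, limma 3.58.1, R 4.3.3), adjusted by Benjamini-Hochberg over 19003 genes, with a threshold of 0.05. The standard error is the log2 fold change divided by the square root of F. CPM was computed with TMM library sizes, and levels of different genes were compared per kb of the longest transcript. Exact permutation of 2 against 3 libraries cannot give a p below 0.1 and was not used. No library duplicated another (chi-square per gene 36 to 226). The fit was tested on simulated data.

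Alternatives were DESeq2 1.42.0, RLE factors, scaling without the 50 most abundant genes, no filter, at least 10 counts in every library, a lowess trend over transcript length removed (span 0.3, 99.3% of tested genes with a length), the replicate number as a block, and each library left out. Coordinates and sequences are RefSeq TAIR10.1, read with Python 3.11.15 and Biopython 1.88. Figures were drawn with matplotlib 3.10.9. The XTH members and all lists were chosen with earlier results of these data known. Named members are those called, the 8 with the smallest p, the 6 with the highest level per kb and their tandem neighbours; of the pathway lists, called genes and up to 3 others with the smallest p.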

Additional observations from a re-analysis of the deposited data

How the results depend on the processing

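XTH11 stayed lower in dof4.1-3 under every alternative run (log2 fold change -1.53 to -1.15) and was called in 9 of 13 of them, and the median of the tested XTH members ran from -0.13 to 0.39. RLE factors and scaling without the 50 most abundant genes changed no call of the named genes. DESeq2 called 258 genes higher and 625 lower, with 1 XTH member higher and 2 lower, and the fit with no filter called 170 and 565. With the length trend removed there were 10 genes higher and 44 lower, 0 XTH members lower and 0 genes of the xyloglucan lists higher. With at least 10 counts in every library 1 gene of the xyloglucan lists was higher. Leaving out 1 library gave 0 to 181 genes higher and 0 to 707 lower, 0 to 3 XTH members higher, 0 to 1 lower, and 0 to 3 xyloglucan genes higher. The fits without Col-0 replicate 1 or 2 called 1 and 0 genes higher and 2 and 0 lower in all, and XTH11 lost its call in both. The 3 higher XTH members were XTH6, XTH18 and XTH19 without dof4.1-3 replicate 1, where 162 genes were higher. Of the tested XTH members and the xyloglucan genes named, signs that turned when 1 library was left out belonged to XTH24 (-0.45 to 0.32), XTH27 (-0.38 to 0.018), XTH28 (-0.32 to 0.13), XTH25 (-0.96 to 1.94), XTH7 (-0.076 to 1.21), XTH29 (-0.36 to 0.39) and XXT2 (-0.13 to 0.13), none of them called. With the length trend removed XTH25 was 0.076 and XTH29 0.078, and with no filter XXT2 was 0.0057. The cause of these changes was not tested.

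Replicate numbers are shared by the labels of the groups but nothing says that they pair libraries, and deviations of same-numbered libraries correlated at -0.25 for replicate 1 and -0.29 for replicate 2. With the replicate number as a block 29 genes were higher and 175 lower, XTH11 stayed called and 0 genes of the xyloglucan lists were higher (adjusted p = 0.260 for CSLC5 and 0.0638 for AXY8 by edgeR, log2 fold change 0.92 and 1.22). XTH25 was 0.66 and XTH29 0.077 in this fit. With the block and the length trend removed 2 genes were higher and 2 lower, 0 XTH members lower and 0 xyloglucan genes higher, XTH25 was 0.80, XTH29 0.17 and BGLC1 -0.067. Of the 12 members under the filter on low counts, the 6 with counts had adjusted p from 0.600 to 0.983 in the fit with no filter, and the 6 at 0 counts have no test.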
